A study of Mus musculus with 2 samples.

Results

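The 45 genes described here code for the machinery that copies DNA and divides the cell. They form a replication list of 20 genes (*Mcm2*, *Mcm3*, *Mcm4*, *Mcm5*, *Mcm6*, *Mcm7*, *Pcna*, *Lig1*, *Uhrf1*, *Hells*, *Tk1*, *Rrm1*, *Rrm2*, *Tyms*, *Gins2*, *Cdc6*, *Cdc45*, *Pclaf*, *Fen1* and *Tipin*) and a mitosis list of 25 genes (*Mki67*, *Top2a*, *Cdk1*, *Ccna2*, *Ccnb1*, *Ccnb2*, *Cdc20*, *Ube2c*, *Birc5*, *Cenpf*, *Cenpe*, *Cenpa*, *Aspm*, *Tpx2*, *Anln*, *Kif20a*, *Kif11*, *Kif23*, *Bub1*, *Bub1b*, *Aurka*, *Aurkb*, *Plk1*, *Cdkn3* and *Nusap1*). The members were listed by name, with earlier results of these data known when the list was chosen. All 45 were found among the 32285 genes counted. All are protein-coding genes, spread over 18 chromosomes.

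Live CD45+ cells, that is immune cells, were sorted from neonatal mouse hearts and profiled by scRNA-seq. Each heart had a myocardial infarction (MI) at postnatal day 2 and was collected 7 days after it, when mice were 9 days old (P2MI7dpi). WT mice were compared with *Lyve1* KO mice, which lack the hyaluronan receptor LYVE-1 in every cell from the germline on, and not in macrophages alone. Both groups had the same injury, and no uninjured heart was analysed here. Cells of 5 hearts were pooled into 1 library per genotype, with both sexes in each pool, and no map from cells to hearts was used, so no genotype had a replicate. Intervals given below are therefore 95% intervals for counting error only. They hold no spread between hearts, and no p-value was computed between genotypes.

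A dividing cell first loads the ring-shaped MCM helicase onto its DNA, then unwinds and copies the DNA in S phase while enzymes supply deoxynucleotides, and later condenses its chromosomes, attaches them to the spindle and splits. Replication genes are switched on by E2F factors around the start of S phase, and many mitosis genes later by the MuvB complex with B-MYB and FOXM1, so that the lists mark successive stages of one cycle. Resident macrophages of the heart are known to renew by division in place, while monocytes come from the bone marrow.

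The promoters of the lists hold the letters of different factors, and 4 of them are shown because they carry the letters of their list. RefSeq promoters (GRCm38.p6, 250 bases before to 50 after the start) were matched for 38 of the 45 members, leaving *Ccna2*, *Gins2*, *Mcm4*, *Aurkb*, *Tipin*, *Tpx2* and *Kif20a* unmatched. The E2F-type letters TTTCCCGC, TTTCGCGC, TTTGCCGC and TTTGGCGC, searched on both strands, stood in 9 of 17 replication promoters (52.9%), in 1 of 21 mitosis promoters (4.76%, *Cdk1*) and in 2.61% of the promoters of all 27025 symbols. The letters of the cell cycle homology region (CHR), TTTGAA and TTCGAA, stood in 4 of 17 replication promoters (23.5%), in 17 of 21 mitosis promoters (81.0%) and in 21.7% of all. A CHR match together with CCAAT was present in 16 of the 21 mitosis promoters (76.2%), against 3 of 17 replication promoters (17.6%) and 9.65% of all. Below are the 2 members of each list with the most UMIs whose single promoter entry holds the letters of its list, printed 5′ to 3′ on the gene's strand from 250 bases before to 10 after the start, with each match in capitals. The matches are a description of these letters and not of bound sites.
*Pclaf*, chr9:65890073-65890332, plus strand, 1 E2F-type match that begins 5 bases before the start: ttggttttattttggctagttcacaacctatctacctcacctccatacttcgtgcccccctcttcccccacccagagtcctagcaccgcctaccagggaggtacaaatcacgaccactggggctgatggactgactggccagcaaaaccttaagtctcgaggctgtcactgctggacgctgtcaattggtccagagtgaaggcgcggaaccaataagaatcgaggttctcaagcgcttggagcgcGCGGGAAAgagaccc
*Mcm6*, chr1:128359696-128359955, minus strand, 3 E2F-type matches of which 2 overlap: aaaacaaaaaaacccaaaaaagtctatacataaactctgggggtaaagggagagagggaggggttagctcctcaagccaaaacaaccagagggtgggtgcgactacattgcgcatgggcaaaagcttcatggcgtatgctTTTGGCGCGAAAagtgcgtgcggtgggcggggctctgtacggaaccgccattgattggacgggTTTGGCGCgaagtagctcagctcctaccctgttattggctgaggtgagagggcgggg
*Mki67*, chr7:135716370-135716629, minus strand, 2 CHR matches: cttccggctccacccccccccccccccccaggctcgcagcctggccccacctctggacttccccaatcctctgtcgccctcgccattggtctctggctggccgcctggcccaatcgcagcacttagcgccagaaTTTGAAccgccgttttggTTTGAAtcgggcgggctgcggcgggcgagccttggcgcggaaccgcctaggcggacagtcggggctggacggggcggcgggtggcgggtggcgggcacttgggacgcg
*Top2a*, chr11:99024180-99024439, minus strand, 4 CHR matches: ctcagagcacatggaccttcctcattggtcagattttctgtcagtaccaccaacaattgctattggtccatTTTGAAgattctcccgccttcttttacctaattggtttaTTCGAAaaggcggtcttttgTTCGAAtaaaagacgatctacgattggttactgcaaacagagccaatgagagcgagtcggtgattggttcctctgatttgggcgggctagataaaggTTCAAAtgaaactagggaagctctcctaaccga

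After filtering, 4187 WT cells (median 11106 unique molecular identifiers, UMIs, which stand for single RNA molecules) and 3391 KO cells (median 12856) remained, and 9 cell barcodes were found in both libraries. *Lyve1* itself followed the labels in CCR2- macrophage-like cells, which held 551 CPM of it (UMIs per 1000000 UMIs of the same cells) in WT against 21.8 CPM in KO, and over all kept cells (246.7 and 13.1 CPM). In the other main classes it was low and had the opposite order, with 8.28 and 23.3 CPM in CCR2+ macrophage-like, 0.125 (1 UMI) and 3.75 CPM in monocyte-like, 0.328 (2 UMIs) and 5.37 CPM in B cell-like and 0 and 1.42 CPM (3 UMIs) in T cell-like cells, where the counting intervals overlapped. Cells were clustered without the 45 members and other cell cycle genes as features. Scores of the S and G2M phases, made from cell cycle genes, were regressed out first, so such genes could still shape the clusters. Clusters were called like a cell type from marker genes. This gave 1063 WT and 473 KO CCR2- macrophage-like cells, 191 and 188 CCR2+ macrophage-like cells, 422 and 459 monocyte-like cells, 425 and 497 B cell-like cells and 75 and 171 T cell-like cells. The 12 macrophage markers summed to 33917 CPM (WT) and 30441 CPM (KO) in CCR2- macrophage-like cells, against 146 and 188 CPM in B cell-like cells. Clusters without a name held 1210 WT and 879 KO cells, mostly of low depth.

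In WT the 2 lists stood at similar heights in CCR2- macrophage-like and B cell-like cells, and in KO they stood higher in B cell-like cells. Both lists were lower in the other main classes. The 2 libraries differed in opposite directions in CCR2- macrophage-like and B cell-like cells. In CCR2- macrophage-like cells the replication list summed to 1116 CPM in WT against 764 CPM in KO, and the mitosis list to 1283 against 810.5 CPM. The log2 ratios of CPM + 1, KO over WT, were -0.55 (-0.58 to -0.52) and -0.66 (-0.69 to -0.63). B cell-like cells had the opposite order, with 1301 CPM (WT) and 1433 CPM (KO) for replication (log2 ratio 0.14, 0.10 to 0.18) and 1167 and 1708 CPM for mitosis (0.55, 0.51 to 0.59). CCR2+ macrophage-like cells held 479 and 341 CPM of replication UMIs and 655 and 216 CPM of mitosis UMIs. Monocyte-like cells were lower still, at 298 and 211 CPM for replication and 221 and 138 CPM for mitosis. T cell-like cells held 489 and 549 CPM for replication and 186 and 527 CPM for mitosis. Mature neutrophils do not divide, and neutrophil-like cells gave the floor of 107.5 and 105.4 CPM for replication and 130.1 and 159.9 CPM for mitosis. The monocyte-like mitosis sum in KO lay between the neutrophil-like sums of the libraries. Most of the neutrophil-like mitosis sum came from *Kif23*, which monocyte-like cells held at a lower level. The sums therefore do not place the other mitosis members of monocyte-like cells at this floor. At the other end, thymocyte-like cells, a class of 2 clusters of which the deeper was led by *Dntt* and *Rag1*, held 5713 and 6687 CPM for replication and 8204 and 5834 CPM for mitosis. Here and throughout, fewer dividing cells and less RNA per dividing cell cannot be told apart from a summed level alone.

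**Figure D1:**
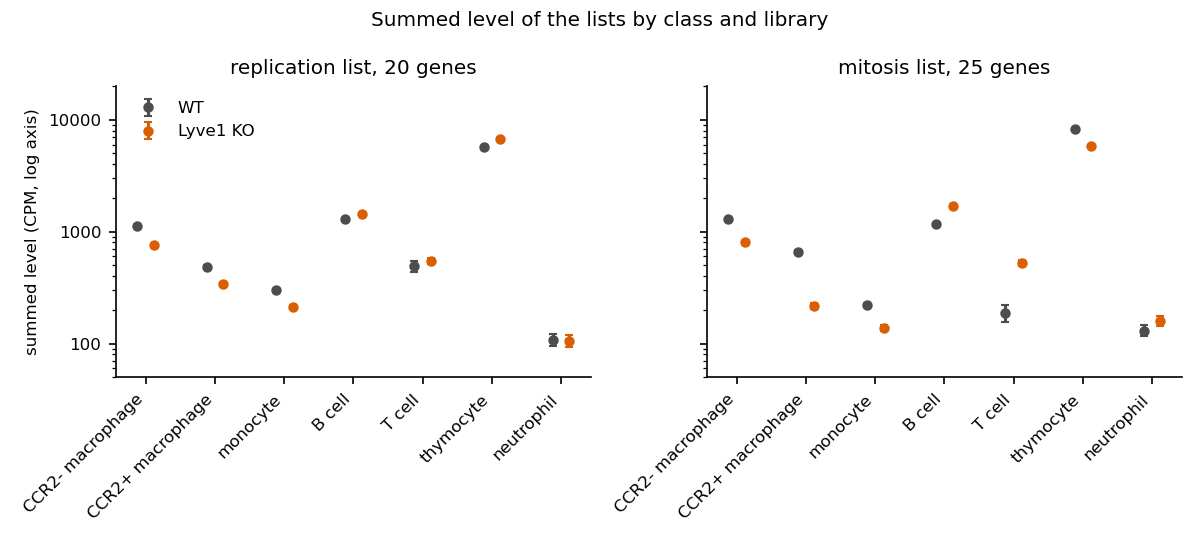
Summed level of the replication list (left) and the mitosis list (right) in CPM on a log axis, by class and library, with 95% counting intervals. WT lies above KO in CCR2- macrophage-like, CCR2+ macrophage-like and monocyte-like cells for both lists, KO lies above WT in B cell-like cells, and neutrophil-like cells lie between 105.4 and 159.9 CPM.

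All 45 members were lower in KO than in WT in CCR2- macrophage-like cells. Counting genes with at least 100 UMIs over both libraries, 16 of 20 replication members and 21 of 25 mitosis members were lower by a log2 ratio of at least 0.5 and none was higher, where 4.93% of all 10983 genes counted were lower and 3.14% higher by that much. The median log2 ratio was -0.57 over the replication members, -0.67 over the mitosis members and -0.09 over all genes. This uniform direction is not 45 separate observations, since the members were seen together in the same cells.

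Among the replication genes, the 6 subunits of the MCM helicase were all lower in KO, from *Mcm6* (91.9 CPM in WT, 64.0 CPM in KO, log2 ratio -0.52) to *Mcm2* (42.4 and 23.5 CPM, -0.82). *Mcm3* stood at 88.7 and 59.8 CPM, *Mcm5* at 54.4 and 36.5 CPM, *Mcm4* at 52.5 and 32.1 CPM and *Mcm7* at 48.0 and 28.7 CPM. *Cdc6*, which loads the helicase, and *Cdc45* and *Gins2*, which complete it at firing, had log2 ratios of -0.65, -0.63 and -0.66. The fork proteins differed less evenly. *Pcna*, the sliding clamp of the polymerases and the replication member with the most UMIs, stood at 219 CPM in WT against 171 CPM in KO (-0.36), and its partner *Pclaf* was 73.1 and 54.9 CPM (-0.41). *Lig1* and *Fen1*, which join and trim the pieces of the lagging strand, had log2 ratios of -0.56 and -0.67, and *Tipin*, a fork stabiliser, -0.54. Of the enzymes of nucleotide supply, *Rrm1* (65.7 and 41.1 CPM, -0.66) and *Rrm2* (-0.58), the subunits of ribonucleotide reductase, were past the fold, as was *Tk1* (-0.52), while *Tyms*, the thymidylate synthase, showed the smallest difference of the list (35.8 and 28.3 CPM, -0.33). *Uhrf1*, which carries DNA methylation over to the new strand, was among the members with the largest difference (38.8 and 21.7 CPM, -0.81), and *Hells*, a chromatin remodeler, stood at -0.48.

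The mitosis members spanned log2 ratios from -1.06 to -0.40. *Mki67*, which coats mitotic chromosomes and is the usual marker of proliferation, stood at 199 CPM in WT against 141 CPM in KO (-0.50), and *Top2a*, which untangles the copied chromosomes, 133 and 94.8 CPM (-0.49). Both thus lay at the small end of the list. *Cdk1*, the kinase that drives entry into mitosis, was 62.9 and 36.6 CPM (-0.77), and its cyclins *Ccna2*, *Ccnb1* and *Ccnb2* had log2 ratios of -0.98, -0.87 and -0.59. *Plk1*, *Aurka* and *Aurkb*, kinases of the spindle and the chromosomes, stood at -0.92, -0.67 and -0.66. *Ube2c* and *Cdc20*, parts of the ubiquitin ligase system that ends mitosis, were at about a log2 ratio of -0.99 each, with *Ube2c* at 86.9 and 43.3 CPM. Of the centromere and kinetochore genes, *Cenpa* showed a small difference (114 and 85.1 CPM, -0.42), *Cenpe* (55.5 and 33.5 CPM) and *Cenpf* larger ones (-0.71 and -0.82), and *Birc5*, which encodes survivin, lay between (65.8 and 42.0 CPM, -0.64). The checkpoint kinases *Bub1* and *Bub1b* had log2 ratios of -0.51 and -0.68, and the phosphatase *Cdkn3* -0.58. Spindle genes ranged from *Tpx2* (-0.50) and *Nusap1* (-0.55) over the motor *Kif11* (-0.65) to *Aspm*, the lowest of the list (27.1 and 12.4 CPM, -1.06). Of the cytokinesis genes, *Kif20a* (19.1 and 8.93 CPM, -1.02) and *Kif23* (52.3 and 26.9 CPM, -0.93) were at that end too, while *Anln*, which scaffolds the contractile ring, was at the other (32.1 and 24.1 CPM, -0.40).

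**Figure D2:**
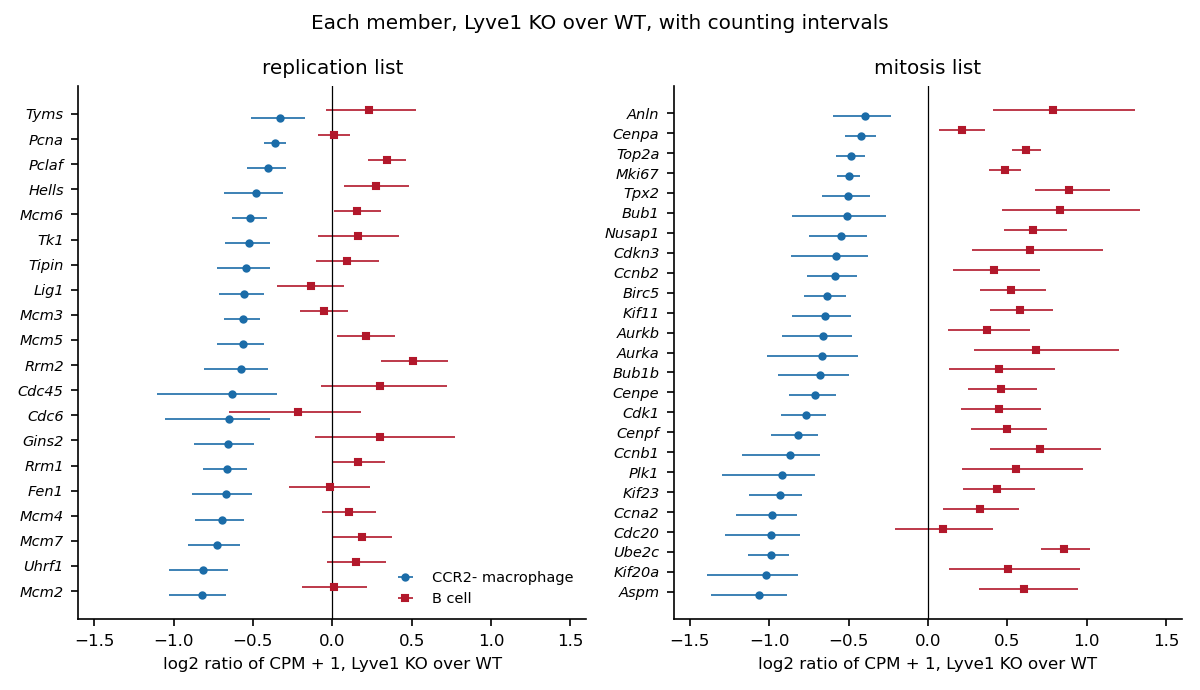
Log2 ratio of CPM + 1, *Lyve1* KO over WT, of each replication member (left) and mitosis member (right) with 95% counting intervals, for CCR2- macrophage-like cells (circles) and B cell-like cells (squares). All 45 circles lie left of 0, from -1.06 to -0.33, and all 25 mitosis squares lie right of 0.

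Other genes of the same processes, listed by function outside the 45 members, leaned the same way in CCR2- macrophage-like cells. None of the genes of the 9 groups was higher in KO past the fold, and their counts stand beside the 4.93% of all genes that were lower and the 3.14% that were higher in this class. Of 28 spindle and cytokinesis genes 19 were lower (median log2 ratio -0.62), from *Kifc1* at -0.86 to *Ckap2l* at 0.03. Of 20 genes of chromatin assembly and S-phase repair 12 were lower (median -0.54), among them the nuclease *Exo1* (6.29 and 2.74 CPM, -0.96), and of 17 genes of mitotic entry and exit 9 were lower (median -0.51), with the cyclin *Ccnf* at -0.92 and the separase *Espl1* at 0.24. Smaller shares of the other groups were past the fold: 6 of 20 kinetochore and checkpoint genes (median -0.44), 5 of 13 genes of origin licensing and firing (-0.44), 5 of 21 genes of the polymerases and clamp loader (-0.36), 4 of 10 E2F and Myb-Foxm1 regulators (-0.39), 3 of 12 genes of nucleotide supply (-0.33) and 3 of 18 chromatin and tubulin genes (-0.34). *Pole*, the catalytic subunit of the leading strand polymerase, was the lowest gene named in these groups (12.8 and 5.90 CPM), while *Rfc1*, the large subunit of the clamp loader, was 73.7 and 72.0 CPM (-0.03).

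The members' UMIs were held by few cells. In CCR2- macrophage-like cells the tenth of cells with the most mitosis UMIs held 84.6% of them in WT and 82.1% in KO, and for replication 61.1% and 63.0%, so that the counting intervals of summed levels are narrower than the sampling of cells. Cells were therefore also counted. Because KO cells were deeper (median 26207 against 24344 UMIs in this class), each cell was thinned to 6900 UMIs, which left out 44 WT and 19 KO CCR2- macrophage-like cells. A cell with UMIs of at least 5 different members of a list was counted as holding the profile of that list. This rule was chosen after seeing the data. By this count no neutrophil-like cell held either profile (0 of 201 in WT and 0 of 199 in KO, which allow shares of up to 1.49% and 1.51%). The planned count of at least 3 UMIs of a list did not separate these cells. For the mitosis list, 9.95% of WT and 17.6% of KO neutrophil-like cells met it. This was mostly through *Kif23*, which had a UMI in 28.9% and 43.2% of the thinned neutrophil-like cells. *Top2a* had 4 UMIs in all WT and 0 in all KO neutrophil-like cells.

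The same UMIs were also counted by cells. In the thinned CCR2- macrophage-like cells all 45 members had a UMI in a smaller share of KO cells. This share was not computed over all genes, whose median log2 ratio in this class was also below 0 (-0.09). No result is read from the count of 45. The helicase subunits *Mcm5* (19.3% of WT and 10.6% of KO cells) and *Mcm2* (16.7% and 8.15%) differed most, against 0.498% and 0.503% and against 0% and 0.503% of neutrophil-like cells. *Pcna* was the member seen in the most cells, at 60.7% and 55.9%, but it was also seen in 33.8% and 27.6% of neutrophil-like cells, and *Cenpa* was nearly level at 37.1% and 36.1%, with 6.97% and 9.55% in neutrophil-like cells. *Mki67* was seen in 23.8% and 21.4% and *Top2a* in 15.0% and 11.2% of cells, and *Plk1*, the rarest in WT, in 3.83% and 3.08%. Without thinning, *Mcm2* was seen in 332 of 1063 WT and 119 of 473 KO cells and *Pcna* in 942 and 413.

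The mitosis profile was held by 124 of 1019 WT (12.2%, 10.2 to 14.3) and 37 of 454 KO (8.15%, 5.80 to 11.1) CCR2- macrophage-like cells, so that KO minus WT was -4.02 percentage points (-7.08 to -0.59). The replication profile was held by 256 (25.1%) and 72 (15.9%), KO minus WT being -9.26 points (-13.4 to -4.81). Cells were also split by both profiles, and no stage marker outside the lists was used. Cells with the replication profile alone were 16.9% of WT and 11.2% of KO cells (-5.65 points, -9.19 to -1.75) and cells with both were 8.24% and 4.63% (-3.62 points, -6.05 to -0.82). Cells with the mitosis profile alone were 3.93% and 3.52% (-0.40 points, -2.32 to 1.96), a difference within counting error. With at least 3 UMIs as the rule the shares were 53.0% and 40.3% for replication (-12.7 points, -18.0 to -7.18) and 28.6% and 24.2% for mitosis (-4.33 points, -9.01 to 0.61), the latter within counting error. Without thinning, the profile shares were 23.5% and 18.6% for mitosis and 49.3% and 45.2% for replication.

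**Figure D3:**
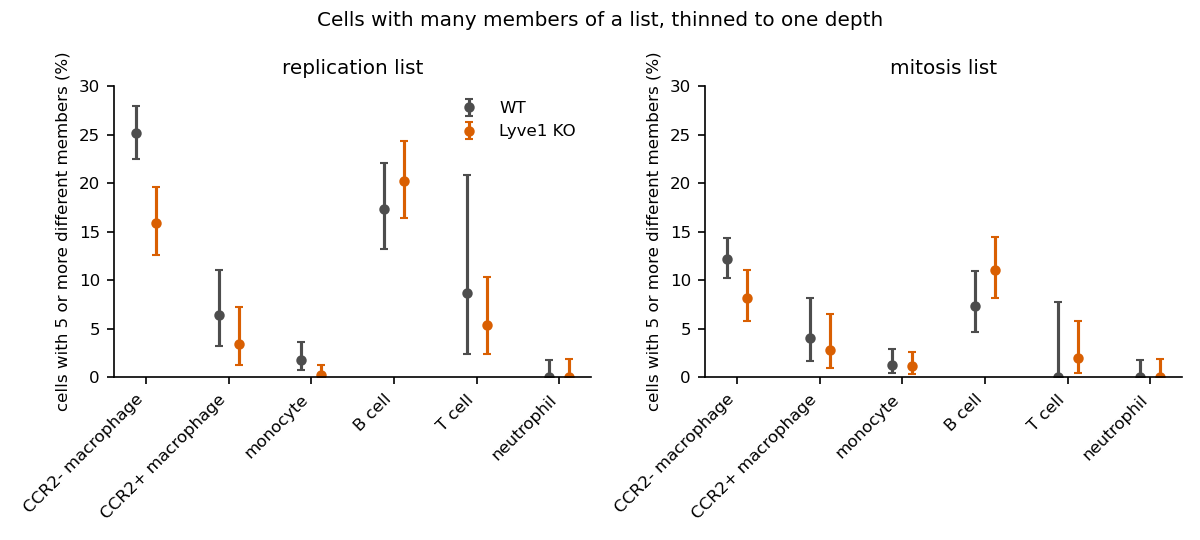
Share of cells with UMIs of at least 5 different members of the replication list (left) or the mitosis list (right) after thinning to 6900 UMIs, in percent, with 95% Clopper-Pearson intervals. WT lies above KO in CCR2- macrophage-like cells for both lists, and both libraries are at 0% in neutrophil-like cells.

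Within the cells that held the mitosis profile the list stood at 6910 CPM (WT) and 5966 CPM (KO), against 222 and 193 CPM in the other thinned cells. In the cells with at least 3 mitosis UMIs it was 3672 (WT) and 2651 CPM (KO). Both sets of cells were chosen by this same list, so these levels are a description. These cells held 85.6% and 78.6% of the mitosis UMIs of the class. With them left out, a choice made on the same UMIs, the class log2 ratio of the mitosis list was -0.20 in place of -0.66 and that of the replication list -0.40 in place of -0.55. They were deeper than the rest, with medians of 32678.5 and 37409 UMIs against 23892 and 26551. They held the macrophage markers at a lower level than the other cells of the class (25436 against 35563 CPM in WT, 21958 against 31492 CPM in KO) and the T cell markers near 0 (16.1 and 19.9 CPM for 13 genes).

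The 4 kinds of cells carried different members, and the WT values show the order. The helicase subunit *Mcm6* was 254 CPM in the 172 cells with the replication profile alone, 227 CPM in the 84 cells with both and 19.0 CPM in the 40 cells with the mitosis profile alone. *Pcna* (301, 620 and 120 CPM), *Pclaf* (33.5, 515 and 119 CPM), *Tk1* (56.4, 342 and 56.1 CPM) and *Rrm2* (15.5, 209 and 12.1 CPM) peaked in cells with both. *Mki67* was near its height in both kinds of mitosis cells (56.4, 1081 and 967 CPM), as was *Ube2c* (506 and 544 CPM in those cells). *Ccnb2* (5.49, 205 and 415 CPM), *Cdc20* (5.87, 139 and 217 CPM) and *Cenpa* (47.1, 296 and 533 CPM) were highest in cells with the mitosis profile alone. KO cells had the same order, with *Mcm6* at 237 CPM in the 51 cells with the replication profile alone and 208.5 CPM in the 21 cells with both, and *Pclaf* at 67.8 and 553.5 CPM. Since the profiles were set by these same genes, these values describe the cells and test nothing.

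**Figure D4:**
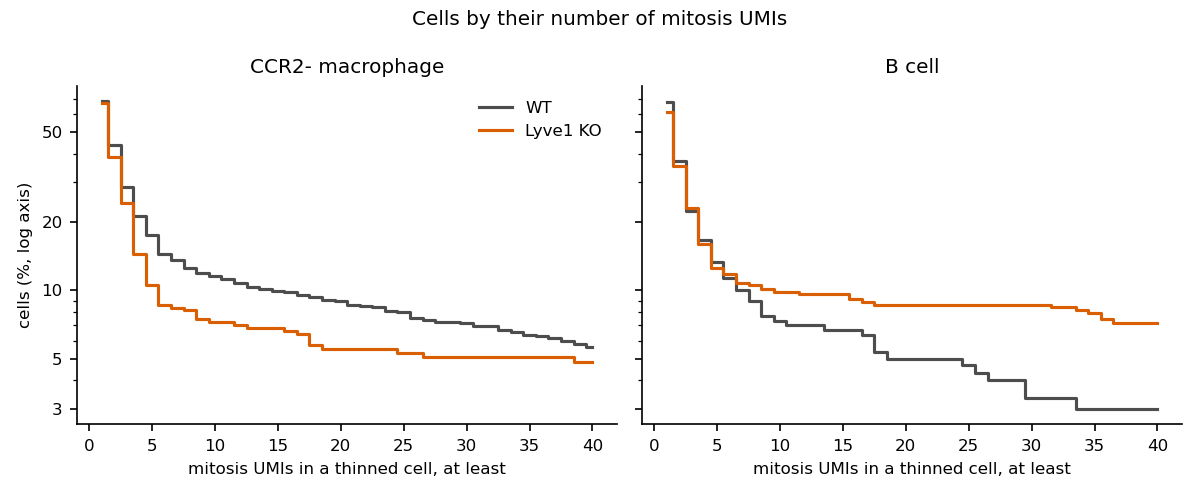
Share of thinned cells, in percent on a log axis, with at least the number of mitosis UMIs on the horizontal axis, for CCR2- macrophage-like cells (left) and B cell-like cells (right). The WT line lies above the KO line over the whole range in CCR2- macrophage-like cells and under it from 6 UMIs on in B cell-like cells.

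Each pool held hearts of both sexes, so cells could be split by sex-linked UMIs, which gave different pictures for the 2 lists. Among CCR2- macrophage-like cells, 287 WT and 192 KO cells had an *Xist* UMI and no Y-linked UMI, and 716 and 245 had a Y-linked UMI and no *Xist* UMI. The replication list was lower in KO by the same log2 ratio of -0.58 in both parts: 1305 and 871 CPM in *Xist* cells, 1059 and 709 CPM in Y-linked cells. The mitosis list was nearly level in *Xist* cells, at 1414 CPM (WT) and 1351 CPM (KO) (-0.07, -0.11 to -0.02), and differed widely in Y-linked cells, at 1249 and 459 CPM (-1.44, -1.50 to -1.39). Among members, 15 of 20 replication genes were lower past the fold in *Xist* cells (median -0.68; 5.03% of all genes lower, 3.05% higher) and 15 of 20 in Y-linked cells (median -0.63; 9.79% lower, 4.16% higher). For the mitosis list it was 1 of 25 in *Xist* cells (median -0.09) and 25 of 25 in Y-linked cells (median -1.62). The mitosis profile was held by 35 of 279 WT (12.5%) and 22 of 188 KO (11.7%) *Xist* cells (-0.84 points, -6.69 to 5.51), and by 86 of 694 (12.4%) and 15 of 241 (6.22%) Y-linked cells (-6.17 points, -9.76 to -1.76). How many hearts of each sex were in a pool is not given in the sources used here, so sex and single hearts cannot be told apart, and whether the parts differ was not tested.

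The CCR2- macrophage-like class was made of 6 clusters, and the difference was not the same in all of them. A small cluster led by the histone genes *Hist1h1b* and *Hist1h2ab*, with *Pclaf*, *Rrm2* and *Tk1* among its 10 leading genes, was 4.52% of the class in WT (48 cells) and 1.48% in KO (7 cells). Of the cells with the mitosis profile it held 40 of 124 in WT and 7 of 37 in KO. Without it the class log2 ratio was -0.29 for replication and -0.60 for mitosis. In the cluster led by *Olfml3* and *Ch25h* (495 and 191 cells), replication stood at 846 CPM in WT against 966 CPM in KO. Past the fold, 4 of 20 replication members were higher and 0 lower (median 0.19, where 2.99% of all genes were lower and 1.82% higher). The share of thinned cells with at least 3 replication UMIs had the opposite order, 51.3% and 45.3% (-5.97 points, -14.3 to 2.59), within counting error. The tenth of cells with the most replication UMIs held 51.2% of them in WT and 62.3% in KO. Of the mitosis members 4 of 25 were lower (median -0.32) on sums of 1187 and 954 CPM. In the cluster led by *Gdf15* and *Gem* (187 and 74 cells), 13 of 18 replication members counted (median -0.67) and 25 of 25 mitosis members (median -1.26) were lower (8.13% of all genes lower, 1.83% higher), on mitosis sums of 1690 and 750 CPM. Its shares with at least 3 mitosis UMIs were 31.1% and 26.0% (-5.08 points, -16.3 to 7.67), within counting error. For at least 3 replication UMIs they were 55.6% and 37.0% (-18.6 points, -30.9 to -4.98). The mitosis profile was held by 26 WT and 7 KO cells of this cluster. The tenth of its cells with the most mitosis UMIs held 83.9% and 78.1% of them. In the cluster led by *Ccl8* and *Tslp*, which has *Lyve1* itself and *Cd163* among its leading genes (202 and 129 cells), both lists were low, with 528 and 403 CPM for replication and 547 and 418 CPM for mitosis. There, 7 of 16 replication members and 4 of 12 mitosis members counted were lower (medians -0.44 and -0.38; 4.81% of all genes lower, 1.88% higher), and 6 WT and 3 KO cells held the mitosis profile. The other members had too few UMIs over both libraries together to be counted in this cluster. With both sums lower in KO, members high in WT were more likely to be counted. These member counts and medians may therefore follow in part from this rule. The *Prg4* and *Saa3* cluster (58 and 55 cells) was lower in KO for both lists (1165 and 600 CPM, 722 and 476 CPM). Its shares with at least 3 UMIs differed within counting error. They were 45.6% and 41.2% for replication (-4.44 points, -22.3 to 13.9) and 26.3% and 23.5% for mitosis (-2.79 points, -18.6 to 13.6). In the *Cd207* and *Clec4f* cluster, with 73 WT and only 17 KO cells, both sums were higher in KO (895 and 1124 CPM, 249 and 1492 CPM). Yet its share of thinned cells with at least 3 replication UMIs was lower in KO, at 65.2% and 37.5% (-27.7 points, -49.3 to -1.11). The mitosis profile was held by 2 WT and 3 KO cells of this cluster. With the KO level of each cluster weighted by the share of WT class UMIs in that cluster, the KO sums were 958 CPM for replication and 1128 CPM for mitosis. These lie between the KO and the WT values. The histone-led cluster, which list members helped to lead, is among the weighted clusters, and its KO level rests on 7 cells. The weighting is thus in part set by the lists themselves, and no part of the difference is assigned from it.

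**Figure D5:**
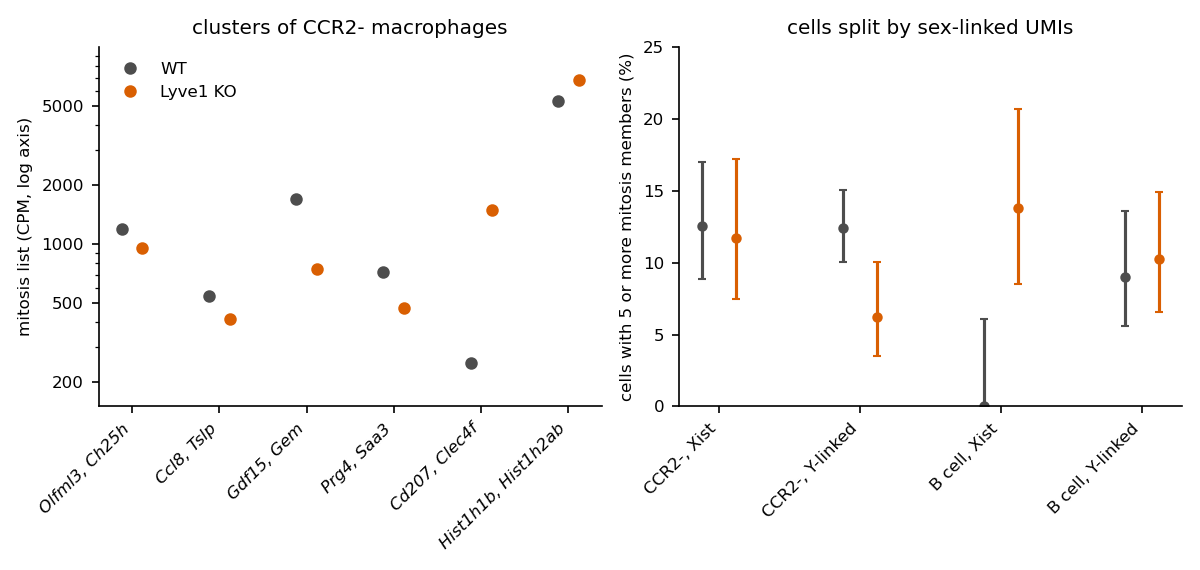
Left, summed mitosis list in CPM (log axis) in the 6 clusters of CCR2- macrophage-like cells, named by their leading genes, in WT and *Lyve1* KO. Right, share of cells with at least 5 different mitosis members, in percent with 95% Clopper-Pearson intervals, for CCR2- macrophage-like and B cell-like cells with *Xist* or with Y-linked UMIs, where the WT *Xist* B cell-like cells are at 0%.

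Markers of other cells moved with the genotype in this class. The 13 CCR2+ macrophage markers summed to 3123 CPM (WT) and 4644 CPM (KO) in CCR2- macrophage-like cells. The 13 monocyte markers summed to 77.7 and 340 CPM, and the 9 neutrophil precursor markers to 23.3 and 299 CPM. The monocyte and neutrophil precursor lists share the gene *Chil3*, so they are not separate signs. Other lists were lower in KO, among them the B cell precursor (133 and 89.7 CPM) and erythroid markers (39.1 and 6.47 CPM). The part of these markers in the difference was not tested.

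CCR2+ macrophage-like cells (191 WT, 188 KO) also held less of both lists in KO, with log2 ratios of -0.49 (-0.58 to -0.40) for replication and -1.59 (-1.69 to -1.50) for mitosis. Of 16 replication members counted 10 were lower, and of 15 mitosis members counted 15 were lower, none higher (5.77% of all 7935 genes lower, 3.06% higher). The medians were -0.58 and -1.66, against -0.03 over all genes, and the other 14 members had fewer than 100 UMIs. This limit is set on both libraries together, and most mitosis UMIs of the class came from WT. Members high in WT were thus more likely to be counted. The uniform mitosis count and its median follow in part from this rule, while the log2 ratios of the sums do not depend on it. Among replication members *Pclaf* (26.9 CPM in WT, 8.93 CPM in KO, -1.49) and *Tk1* (18.4 and 7.21 CPM, -1.24) were lowest, while *Gins2* (9.11 and 10.6 CPM, 0.20) and *Lig1* (14.1 and 15.4 CPM, 0.13) were higher in KO. *Pcna*, at 153 and 133 CPM, was close in both. Among mitosis members *Cenpf* (34.0 and 5.49 CPM, -2.43) and *Top2a* (82.6 and 15.3 CPM, -2.36) were lowest, *Mki67* was 104 and 33.1 CPM (-1.63) and *Cdk1* 25.3 and 5.84 CPM (-1.94), and *Cenpa* (59.4 and 39.3 CPM, -0.58) and *Bub1b* (16.1 and 9.61 CPM, -0.69) differed least. These sums rested on a handful of cells, since the mitosis profile was held by 7 of 173 WT cells (4.05%) and 5 of 177 KO cells (2.82%; -1.22 points, -5.60 to 2.95), and the replication profile by 6.36% and 3.39%. Without the cells with the mitosis profile, which were chosen by the same UMIs, the log2 ratios were -0.18 and -0.22. Without regression of cell cycle scores before clustering, which gave other clusters, they were 0.28 and 0.20, so neither list kept its direction in this class. Markers of other cells moved with the genotype here too. The 9 neutrophil precursor markers summed to 346 CPM (WT) and 129 CPM (KO), the 11 neutrophil markers to 247 and 147 CPM, the 6 platelet markers to 603 and 353 CPM and the 10 cardiomyocyte markers to 77.6 and 13.9 CPM, and their part in the difference was not tested. The platelet list shares the gene *Pf4* with the CCR2- macrophage list, so its sum is not a sign of platelets alone.

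Monocyte-like cells (422 WT, 459 KO) stood low for both lists and differed between libraries by log2 ratios of -0.49 (-0.58 to -0.41) for replication and -0.68 (-0.78 to -0.58) for mitosis. Of 11 replication members counted 4 were lower, of 8 mitosis members 3, and none was higher (2.98% of all 8783 genes lower, 1.57% higher). The medians were -0.43 and -0.42, against 0.00 over all genes. The other members had too few UMIs over both libraries together to be counted. With both sums lower in KO, members high in WT were more likely to reach this limit. The counts and medians may therefore follow in part from this rule, while the log2 ratios of the sums do not depend on it. *Pclaf* (15.6 CPM in WT, 3.34 CPM in KO, -1.93) and *Mcm5* (12.6 and 7.20 CPM, -0.73) were the lowest replication members and *Fen1* (12.7 and 12.0 CPM) and *Mcm3* (14.2 and 12.3 CPM) the closest. *Top2a* (22.1 and 5.68 CPM, -1.79) and *Birc5* (9.11 and 4.16 CPM, -0.97) were the lowest mitosis members, and *Bub1b* (6.99 and 7.50 CPM, 0.09) and *Ccnb2* (13.6 and 10.9 CPM, -0.29) the highest. The clamp *Pcna* (128 and 103 CPM) and the motor *Kif23* (32.0 and 25.1 CPM) were also held by neutrophil-like cells, at 73.8 and 60.8 CPM and at 86.6 and 123 CPM. Cells with the mitosis profile were 5 of 392 in WT (1.28%) and 5 of 444 in KO (1.13%), and all of them were in the cluster led by *Mmp8* and *S100a8*, while the cluster led by *Cd300e* and *Pglyrp1* held 0 of 160 and 0 of 197. Cells with the replication profile were 7 in WT (1.79%) and 1 in KO (0.225%; -1.56 points, -3.42 to -0.17). The shares with at least 3 replication UMIs had the opposite order, 19.9% and 20.5% (0.60 points, -4.89 to 6.01), within counting error. For at least 3 mitosis UMIs they were 5.61% and 5.86% (0.24 points, -3.05 to 3.44). The tenth of cells with the most replication UMIs held 47.8% of them in WT and 29.3% in KO. The largest count of replication UMIs in 1 cell was 194 in WT and 27 in KO. The mitosis sum was higher in KO, by 0.60 on the log2 scale, in monocyte-like cells clustered without regression of cell cycle scores. In this class the 11 neutrophil markers summed to 1435 CPM (WT) and 704 CPM (KO) and the 10 markers of ILC2, a group of innate lymphoid cells, to 38.6 and 12.9 CPM, and their part in the difference was not tested.

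B cell-like cells (425 WT, 497 KO) had more mitosis UMIs in KO, and their replication members were nearly level. All 25 mitosis members were higher in KO, 14 of them past the fold (3.41% of all 9027 genes higher, 3.22% lower), with a median log2 ratio of 0.52 against -0.01 over all genes. Of the replication members 1 of 20 was higher past the fold, *Rrm2* (44.8 CPM in WT, 64.2 CPM in KO, 0.51), with *Pclaf* next (141 and 179 CPM, 0.34) and *Cdc6* (14.6 and 12.4 CPM, -0.22) and *Lig1* (54.5 and 49.5 CPM, -0.13) at the other end. *Pcna*, at 219 and 221 CPM, and *Mcm6*, at 98.8 and 110 CPM, hardly differed. The other helicase subunits among the most abundant members were as close, with *Mcm3* at 99.8 and 96.3 CPM, *Mcm4* at 76.8 and 82.7 CPM, *Mcm7* at 63.5 and 72.5 CPM and *Mcm5* at 63.2 and 73.3 CPM, and *Rrm1* was 80.1 and 89.9 CPM. *Tpx2*, which nucleates spindle microtubules (32.8 and 61.6 CPM, 0.89), and *Ube2c* (77.8 and 142 CPM, 0.86) led the mitosis members, and *Cdc20* (23.5 and 25.2 CPM, 0.10) and *Cenpa* (103 and 120 CPM, 0.21) were lowest. *Mki67* was 192 and 269 CPM (0.48) and *Top2a* 225 and 346 CPM (0.62), and *Birc5* (46.6 and 67.4 CPM), *Kif23* (38.9 and 53.0 CPM), *Cenpe* (42.4 and 58.6 CPM) and *Cdk1* (32.5 and 44.6 CPM) lay between 0.44 and 0.52 on the log2 scale. The other pathway genes divided the same way, to be read beside the 3.41% of all genes higher and the 3.22% lower: 17 of 28 spindle genes, 9 of 20 kinetochore genes and 6 of 15 genes of mitotic entry and exit counted were higher, with *Kif14* at 1.06 and *Ttk* at 1.03, and 0 genes of origin firing, polymerases, nucleotide supply or chromatin assembly passed the fold in either direction.

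The share of B cell-like cells with the mitosis profile was 22 of 300 (7.33%) in WT and 46 of 416 (11.1%) in KO, which differed within counting error (3.72 points, -0.69 to 7.89), and with the replication profile 17.3% and 20.2% (2.86 points, -3.04 to 8.51). Without thinning the shares were 10.8% and 15.1% for mitosis and 24.9% and 34.2% for replication. Most of these cells were in the cluster led by *Fcrl5* and *Zbtb32*, where 19 of 118 WT and 43 of 168 KO cells held the mitosis profile, while in the cluster led by *Vpreb3* and *Fcer2a* it was 2 of 173 and 1 of 232. The clusters did not share 1 direction. In the *Fcrl5* and *Zbtb32* cluster (119 and 171 cells) the mitosis sum was 1843 and 2633 CPM (log2 ratio 0.51, 0.47 to 0.56), and in the low-depth cluster led by *Sox5* and *Tmem163* (92 and 52 cells) 251 and 704 CPM (1.48, 1.12 to 1.86). In the *Vpreb3* and *Fcer2a* cluster, the one with the most cells (214 and 274), it was lower in KO, at 262 and 165 CPM (-0.67, -0.85 to -0.50). Cells were then split by sex-linked UMIs. Of *Xist* cells, 0 of 59 in WT (which allows up to 5.08%) and 19 of 138 in KO (13.8%) held the mitosis profile. KO minus WT was 13.8 points (6.01 to 20.5). In Y-linked cells the profile was held by 20 of 222 (9.01%) and 23 of 225 (10.2%), 1.21 points (-4.37 to 6.80). The mitosis sum of *Xist* cells was 186 and 2005 CPM. Of 25 mitosis members 17 had enough UMIs to be counted, as had 17 of 20 replication members. All 17 of each list were higher (medians 3.73 and 1.30), where 11.0% of all genes were higher and 14.0% lower. Counting needs enough UMIs over both libraries together, and with the low WT sum mitosis members reached this mainly through KO. The count and median of the mitosis members therefore follow in part from this rule, and no direction is read from them. Y-linked cells had 1414 and 1591 CPM, with 4 of 25 mitosis members higher (median 0.23) and 0 of 20 replication members past the fold (median -0.10), against 3.3% of all genes higher and 3.42% lower. Whether the parts differ was not tested, and the WT part with *Xist* had 88 cells.

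T cell-like cells were few (75 WT, 171 KO), and 6 of the 45 members reached 100 UMIs. Of these, 0 of 4 replication members passed the fold (median -0.10), with *Mcm6* (40.0 and 52.0 CPM, 0.37) highest and *Mcm7* (63.5 and 53.9 CPM, -0.23) lowest, then *Mcm4* (58.0 and 52.5 CPM) and *Pcna* (146 and 140 CPM). Of the 2 mitosis members counted *Top2a* was higher past the fold (29.0 and 115 CPM, 1.95) and *Cenpa* was 95.2 and 117 CPM (0.30), where 5.19% of all 4081 genes were higher and 4.24% lower. The limit is set on both libraries together, and *Top2a* reached it mainly through KO, so no direction is read from this count. *Ube2c* had 0 UMIs in WT and 87 in KO, and *Birc5* 0 and 49. The mitosis sum, 186 and 527 CPM, rested on 3 of 148 KO cells with the mitosis profile (2.03%), against 0 of 46 in WT, which allows up to 6.52%. Without these 3 cells, chosen by the same UMIs, the log2 ratio was -0.18 in place of 1.49.

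In thymocyte-like cells (139 WT, 67 KO) the lists went apart. The 2 clusters of this class were unequally shared, since the one led by *Dntt* and *Rag1* had 71 WT and 59 KO cells and a low-depth one led by *Syt13* and *Ephb2* had 68 and 8. The mitosis sums were 8447 and 5878 CPM in the former (-0.52, -0.56 to -0.49) and 4883 and 4546 CPM in the latter (-0.10, -0.32 to 0.11). Of the replication members 1 of 20 was higher past the fold, *Tk1* (108 and 160 CPM, 0.56), and of the mitosis members 12 of 25 were lower, led by *Ube2c* (856 and 323 CPM, -1.40) and *Ccnb1* (176 and 85.9 CPM, -1.03), where 6.11% of all 6140 genes were lower and 5.99% higher. The mitosis profile was held by 85.1% of 67 WT and 60.5% of 43 KO thinned cells (-24.6 points, -40.9 to -7.82). Thinning thus left 67 of 139 WT and 43 of 67 KO cells, and the part of this and of the clusters' make-up in the difference was not tested. The replication profile was held by 88.1% and 58.1%, which goes against the order of the replication sums, so no order is read from it.

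Counted over all kept cells that reached 6900 UMIs, 264 of 2641 WT cells (10.0%) and 162 of 2365 KO cells (6.85%) held the mitosis profile. The classes shared them differently. CCR2- macrophage-like cells were 47.0% of these cells in WT and 22.8% in KO, B cell-like cells 8.33% and 28.4%, and thymocyte-like cells 21.6% and 16.0%. Dendritic cell-like cells, 5.30% and 5.56% of them, had lower sums in KO for both lists (1273 and 962 CPM, 1506 and 1106 CPM), and NK cell-like cells, 2.65% and 6.17% of them, had replication sums of 1245 and 1120 CPM and mitosis sums of 951 and 1574 CPM. Yet 7 of 77 WT and 10 of 138 KO thinned NK cell-like cells held the mitosis profile, and 29.9% and 23.2% had at least 3 mitosis UMIs. The tenth of NK cell-like cells with the most mitosis UMIs held 81.8% and 90.8% of them, and 1 KO cell held 1000. For the replication profile, CCR2- macrophage-like cells were 56.8% of 451 WT and 27.7% of 260 KO cells, and B cell-like cells 11.5% and 32.3%. These shares also carry the makeup of each pool, in which CCR2- macrophage-like cells were 25.4% of WT and 13.9% of KO cells and B cell-like cells 10.2% and 14.7%.

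Across the 1676 WT and 1120 KO macrophage-like and monocyte-like cells, members of a list went together more than members of different lists, as a description over cells of the same 2 libraries. The median correlation between log-normalized members was 0.54 in WT and 0.42 in KO within the replication list, 0.71 and 0.60 within the mitosis list, and 0.25 and 0.21 between the lists. Of 10706 other genes, the 10 whose pattern was most like the replication sum included *Dut*, which removes dUTP (mean r 0.61), *Pkmyt1*, an inhibitory kinase of CDK1 (0.60), *Stmn1* (0.60), *Clspn*, *Prim1*, *Smc2*, *Tuba1b* and *Pole* (0.55). Most like the mitosis sum were *Cdca3* and *Cdca8* (both 0.75), *Knl1* (0.72), *Hmmr* (0.71), *Ncapd2* (0.70), *Stmn1* (0.70), *Spc24*, *Dlgap5*, *Kif15* and *Cks1b* (0.68). *Stmn1*, a destabiliser of microtubules, was the 1 gene in both sets.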

How the data were processed

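Cells were captured with a 10x Genomics 5' kit, in 1 library per genotype. Per the labels, the authors processed the reads with Cell Ranger 8.0.1 against mm10 and deposited raw counts of UMIs per gene and cell. The 45 members, the gene groups and the marker lists were chosen with earlier results of these data known. Barcodes were kept from 500 genes and 250 UMIs on if no more than 30% of their UMIs were mitochondrial, of 5713 WT (67968938 UMIs) and 5285 KO barcodes (61555917 UMIs). As doublets, 0.4% per 1000 barcodes with the highest scrublet scores (scanpy 1.11.5) were left out, 98 WT and 73 KO, because the automatic threshold marked 1 and 4. Clusters were made in Seurat 5.3.0 (R 4.3.3) from 2000 variable genes less the members, other cell cycle and histone genes, *Lyve1* and sex-linked genes, with S and G2M scores regressed, 30 dimensions and a resolution of 0.8. Clusters named macrophage or monocyte, unless of low depth, were clustered again. With them went 1 cluster at first named cardiomyocyte (229 WT and 138 KO cells), for which macrophage was the next best list. Clusters were named from the marker lists.

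Levels have exact Poisson intervals, log2 ratios of CPM + 1 conditional exact, shares Clopper-Pearson and differences of shares Newcombe intervals. The limit for a count of 0 is 3 counts. A gene was counted as past the fold when its log2 ratio was 0.5 or more from 0 and both libraries together held at least 100 UMIs. Cells under 6900 UMIs were left out of thinned shares. The members named in every class are the 8 of each list with the most UMIs and, per class, the 2 highest and 2 lowest of each list. In the annotation (GRCm38), 9 members overlap another gene on the same strand, so their counts are less certain there. The gene ratio step was tested on simulated counts drawn per class, without spread between cells, and the Clopper-Pearson intervals were checked against another implementation. Clustering, naming, thinning and the profile counts were not tested in this way. Tools were Python 3.11.15, numpy 2.4.6, scipy 1.17.1, pandas 2.3.3 and matplotlib 3.10.9. The count of cells with at least 5 different members and its alternatives, and leaving out these cells, the histone-led cluster or *Pcna*, *Kif23* and *Cenpa*, were chosen after seeing the data. Of the genes most alike to a list, some are not reported here.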

Additional observations from a re-analysis of the deposited data

Results flagged for a closer look

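The libraries differed in opposite directions between classes, and the difference between classes was not tested. The log2 ratio of the summed replication list, KO over WT, was 0.14 in B cell-like cells but -0.55 in CCR2- macrophage-like, -0.49 in CCR2+ macrophage-like and -0.49 in monocyte-like cells. The mitosis list gave 0.55 in B cell-like and 1.49 in T cell-like cells but -0.66, -1.59 and -0.68 in CCR2- macrophage-like, CCR2+ macrophage-like and monocyte-like cells.

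Cells with *Xist* and cells with Y-linked UMIs differed in opposite directions for the replication list in both lymphocyte classes, and this difference was not tested either. In B cell-like cells the log2 ratios were 1.35 with *Xist* and -0.087 with Y-linked UMIs, and in T cell-like cells -0.77 and 0.87. The T cell-like parts had 24 and 46 cells with *Xist* and 31 and 89 with Y-linked UMIs in WT and KO.

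Cells that no marker list named were in no class compared above, though they are among all kept cells, and they held the mitosis profile too: 25 of 179 WT cells (14.0%) and 17 of 165 KO cells (10.3%), where no neutrophil-like cell did.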

How the results depend on the processing

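With 1 library per genotype no spread between hearts could be estimated, and intervals cover counting error only. No paired analysis was possible because each genotype had 1 library and no test was run. In CCR2- macrophage-like cells both summed lists stayed lower in KO under all 14 alternatives, and the differences in shares of cells under all 10. Both sums turned in the B cell-like, CCR2+ macrophage-like and T cell-like classes, as did the monocyte-like mitosis sum, under at least 1 alternative, and the causes were not tested. The monocyte-like replication sum kept its sign under 13 of 13 (-0.64 to -0.053), and in B cell-like cells the share with at least 3 replication UMIs and that with the mitosis profile kept theirs under 10 of 10. Leaving out the cells with the mitosis profile removes cells chosen by the same UMIs, so the signs it gives say nothing of stability, and for the B cell-like and T cell-like mitosis sums it was the 1 alternative that turned them.

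For CCR2- macrophage-like cells the log2 ratio of the replication sum was -0.45 against the median gene ratio, -0.60 with stricter cell limits (1000 genes or more, up to 10% mitochondrial UMIs), -0.47 with no doublets left out, -0.58 without regression, -0.58 in *Xist* cells, -0.51 as a mean of per-cell CPM, -0.58 without the 1% of cells with the most UMIs of the list, -0.40 without the cells with the mitosis profile, -0.60 without *Pcna*, *Kif23* and *Cenpa* and -0.29 without the histone-led cluster. In the same order of settings, the mitosis sum gave -0.56, -0.79, -0.56 and -0.61, then -0.76 at a resolution of 0.4, -0.066 in *Xist* cells, -1.44 in Y-linked cells, -0.55 as a mean of per-cell CPM, -0.20 without the profile cells and -0.60 without the histone-led cluster. The share with at least 3 replication UMIs differed by -18.4 points in *Xist* cells. With 10 CPM added 18 members were lower past the fold in place of 37, and at a log2 ratio of at least 1 there were 2.

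CCR2+ macrophage-like replication was -0.10 under the stricter cell limits, 0.090 with no doublets left out, 0.28 without regression, -0.36 at a resolution of 0.4, -0.20 in *Xist* cells, -0.62 in Y-linked cells, -0.35 as a mean of per-cell CPM, -0.34 without the top 1% of cells, -0.18 without profile cells and -0.64 without the 3 genes, and the share with at least 3 replication UMIs differed by 2.70 points in *Xist* cells. Its mitosis sum was -1.04, -0.78 and 0.20 under the first 3 of these, -1.17 with all variable genes used, -0.29 at a resolution of 0.4, -2.78 in *Xist* cells, -1.20 in Y-linked cells, -1.38 as a mean of per-cell CPM, -0.22 without profile cells and -1.76 without the 3 genes, and 14 members were lower at a log2 ratio of at least 1.

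Monocyte-like replication was -0.31 with no doublets left out, -0.053 without regression, -0.21 with all variable genes, -0.28 at a resolution of 0.4, -0.33 as a mean of per-cell CPM, -0.095 without the top 1% of cells, -0.31 without profile cells and -0.64 without the 3 genes, and its profile share differed by -0.067 points without regression and 0.70 points for at least 3 members. The mitosis sum was -0.37, 0.60, -0.21 and -0.98 under the first 4 of these, -0.89 in *Xist* cells, -0.38 without the top 1%, -0.26 without profile cells and -0.79 without the 3 genes, and the share with at least 3 mitosis UMIs differed by -3.43 points with all variable genes. In place of 7 members, 3 were lower with 10 CPM added, 22 among genes with at least 30 UMIs and 2 at a log2 ratio of at least 1.

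B cell-like replication was 1.35 in *Xist* cells, -0.087 in Y-linked cells, 0.35 as a mean of per-cell CPM and -0.067 without profile cells, and mitosis was 3.43, 0.17, 0.75 and -0.39, or 0.82 without the top 1% of cells. In *Xist* cells the shares differed by 14.4 points (at least 3 replication UMIs), 16.4 (replication profile), 16.4 (at least 3 mitosis UMIs) and 13.8 (mitosis profile). In place of 15 members, 6 were higher with 10 CPM added and 0 at a log2 ratio of at least 1. T cell-like replication was 0.40 under the stricter cell limits, -0.27 with no doublets left out, -0.31 without regression, -0.17 with all variable genes, -0.77 in *Xist* cells, 0.87 in Y-linked cells, -0.24 without the top 1% and -0.30 without profile cells, and the share with at least 3 replication UMIs differed by -12.8 points in *Xist* cells. T cell-like mitosis was 2.08 under the stricter limits, 1.04 without regression, 1.80 with all variable genes, 1.22 at a resolution of 0.4, 2.13 in *Xist* cells, 0.70 as a mean of per-cell CPM, 0.058 without the top 1%, -0.18 without profile cells and 2.62 without the 3 genes, and 12 members were higher among genes with at least 30 UMIs. Without profile cells the thymocyte-like sums gave -1.13 for replication and 0.12 for mitosis, and the replication profile differed by 7.55 points in thymocyte-like *Xist* cells.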
